A study of Mus musculus with 2 samples.

Results

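The collagen genes were examined in primary epidermal keratinocytes of K14-caSmad1 and wild-type mice. Every gene spot present on both arrays was taken whose gene name reads Col, a number, a and a number, such as Col3a1, with Col17a1 left out. This gave 38 collagen genes of 27975 gene names, measured by 76 of 41174 probes. By the structure of their chains, 11 genes were fibrillar collagens, 9 were basement membrane collagens and 18 were of other types. K14-caSmad1 mice carry a transgene for a constitutively active form of Smad1, a transcription factor of bone morphogenetic protein signalling, and the K14 in its name denotes the keratin 14 promoter, which is active in basal cells of stratified epithelia. Animals of both genotypes had the FVB/NJ background and were taken on day 20 after birth, the tissue was epidermis, and no other allele or agent is named in the labels. RNA of both was hybridised together on 2 two-colour Agilent arrays of 60-base probes, with wild type in Cy3 and K14-caSmad1 in Cy5 on both. Dye and genotype therefore cannot be told apart. The labels do not give the number or sex of the animals, whether animals were pooled, whether the cells were cultured, or how many transgenic lines were used.

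Collagens are secreted proteins of 3 chains wound into a triple helix. Fibrillar collagens, such as types I, III and V, assemble into the banded fibrils of the dermis and are made mainly by fibroblasts. Type IV collagen forms the sheet-like network of basement membranes, and type VII collagen forms the anchoring fibrils that tie the epidermal basement membrane to the dermis. Keratinocytes are a known source of type VII collagen and of part of the type IV collagen of skin. The other types include beaded filaments (type VI), collagens that attach to the surface of fibrils (FACIT types such as IX, XII and XVI), short-chain collagens (types VIII and X) and transmembrane collagens.

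Sequences just upstream are shown for 5 genes chosen by the side of 0 on which their ratio lay. Col3a1 and Col1a2 were among the fibrillar genes lower in K14-caSmad1. Col7a1, Col4a5 and Col4a6 were basement membrane genes higher by less than 2-fold. Col3a1 and Col1a2 were tested through wild type alone, so their direction was fixed by the filter described below. The other tested basement membrane genes, Col18a1 and Col4a1, were below 0 and are not shown. Each line gives the 250 bases before the gene start, 5′ to 3′ on the gene's strand, from RefSeq on build GRCm38.p6. The windows are chr1:45311288-45311537 on the plus strand for Col3a1, chr6:4505368-4505617 on the plus strand for Col1a2, chr9:108953336-108953585 on the plus strand for Col7a1, chrX:141475169-141475418 on the plus strand for Col4a5 and chrX:141474077-141474326 on the minus strand for Col4a6. Capitals mark, on either strand, the CCAAT box, the TATA box TATAAA, the GC box GGGCGG, the core of Smad-binding elements CAGAC, and the GC-rich motif GGCGCC, which Smad1 and Smad5 bind. None of these motifs contains another.
Col3a1: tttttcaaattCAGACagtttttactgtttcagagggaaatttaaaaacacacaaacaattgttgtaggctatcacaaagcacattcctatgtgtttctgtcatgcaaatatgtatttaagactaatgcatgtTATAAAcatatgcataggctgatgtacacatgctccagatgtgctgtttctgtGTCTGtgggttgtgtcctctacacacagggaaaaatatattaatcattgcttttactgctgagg
Col1a2: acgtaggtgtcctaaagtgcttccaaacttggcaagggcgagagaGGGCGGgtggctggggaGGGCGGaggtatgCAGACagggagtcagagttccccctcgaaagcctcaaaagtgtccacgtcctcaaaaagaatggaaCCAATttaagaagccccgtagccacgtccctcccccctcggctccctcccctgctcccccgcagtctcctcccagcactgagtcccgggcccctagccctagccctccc
Col7a1: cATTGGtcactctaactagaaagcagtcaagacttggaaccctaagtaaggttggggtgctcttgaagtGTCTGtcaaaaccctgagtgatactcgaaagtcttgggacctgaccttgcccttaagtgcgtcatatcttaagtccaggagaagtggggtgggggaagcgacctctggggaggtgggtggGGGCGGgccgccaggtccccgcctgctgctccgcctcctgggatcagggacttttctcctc
Col4a5: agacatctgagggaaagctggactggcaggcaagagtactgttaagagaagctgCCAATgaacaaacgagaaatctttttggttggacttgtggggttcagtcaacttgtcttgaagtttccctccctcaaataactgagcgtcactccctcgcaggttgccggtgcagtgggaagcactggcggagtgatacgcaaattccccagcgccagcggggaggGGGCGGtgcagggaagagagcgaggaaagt
Col4a6: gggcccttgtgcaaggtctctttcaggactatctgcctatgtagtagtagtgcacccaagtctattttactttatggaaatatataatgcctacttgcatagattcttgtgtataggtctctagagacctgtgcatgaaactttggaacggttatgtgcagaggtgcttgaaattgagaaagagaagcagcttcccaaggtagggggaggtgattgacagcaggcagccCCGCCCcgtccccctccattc
Col3a1 had TATAAA 117 bases before the start and no CpG dinucleotide in the window, whereas Col1a2 had CCAAT at 109 bases, a pair of GGGCGG at 205 and 188 bases, and 11 CpG. Col7a1, Col4a5 and Col4a6 each had 1 GGGCGG, at 61, 30 and 21 bases before the start, with Col4a6 carrying it on the opposite strand. RefSeq promoter windows were matched for 30 of the 38 collagen genes. GGGCGG was in 6 of 8 fibrillar, 5 of 8 basement membrane and 7 of 14 other windows, against 32.9% of all 27025 windows of the same length. CCAAT was in 3, 5 and 2 of these windows, against 34.5%, and TATAAA was in 2, 0 and 2, against 13.0%. CAGAC was in 5, 2 and 5 windows, against 42.1%, and GGCGCC was in 1, 2 and 1, against 9.54%. The median number of CpG per window was 12.5, 10 and 10 in the same classes, against 6 in all windows. The part of base composition in these shares was not tested. These matches describe letters in a window and show no binding.

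Fibrillar collagen transcripts were detected mostly in wild type. Of the 26 fibrillar probes, 8 and 7 were well above background in the wild-type channel on replicates 1 and 2, and 1 and 1 in the K14-caSmad1 channel. A spot is well above background when the scanner software finds its signal clearly over its local background, and a probe counted as such when more than 50% of its spots were. The basement membrane collagens did not show this split, with 6 and 6 of 18 probes in wild type and 5 and 6 in K14-caSmad1. Nor did the other types, with 6 and 8 of 32 probes in wild type and 5 and 8 in K14-caSmad1. Over both arrays, 6 fibrillar probes exceeded background in wild type both times and in K14-caSmad1 neither time, and 0 collagen probes showed the opposite. Among all 41174 probes these patterns held for 1232 and 559. The 53 collagen probes that were well above background nowhere give no sign that their genes were silent, since weaker transcripts could not be measured.

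**Figure D1:**
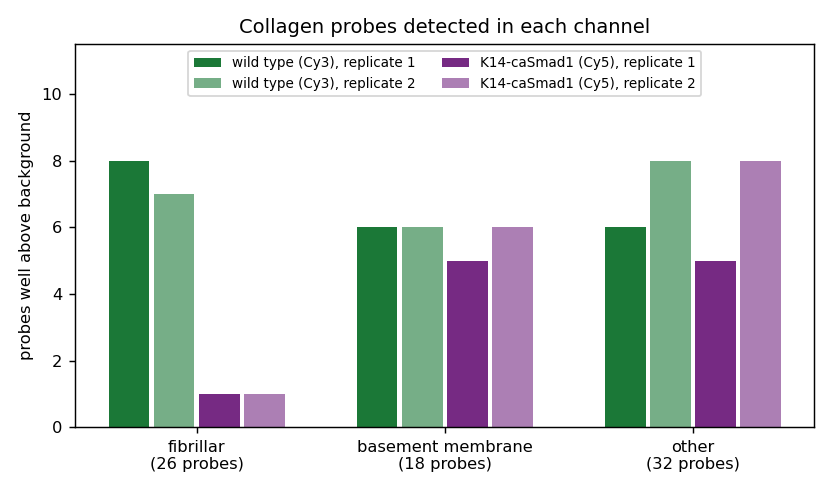
Number of collagen probes well above background (vertical axis) in each class (horizontal axis, with the number of probes on the array), for wild type (green) and K14-caSmad1 (purple) on each array. Fibrillar probes reached 8 and 7 in wild type and 1 in K14-caSmad1 on each array, while the bars of the other 2 classes reached similar heights in both genotypes.

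The arrays as a whole bear on these counts. In the wild-type channel 15570 and 16144 of 43379 gene spots were well above background, and in the K14-caSmad1 channel 14412 and 15800. The 153 negative control spots had a mean signal of 340 and 343 in Cy3, with an SD of 11.1 and 10.8, and of 1070 and 1074 in Cy5, with an SD of 52.7 and 34.4. The lowest signal well above background, after normalisation, was 8.69 and 8.64 on the log2 scale in Cy3 and 8.80 and 8.62 in Cy5, higher in Cy5 on replicate 1 and lower on replicate 2. The part of these in the fibrillar counts was not tested. Between arrays, the ratios of 12287 single-spot probes varied with an SD of 0.0946 where spot noise alone predicted 0.100, so the arrays, which the labels call biological replicates, were counted as 1 sample per genotype. For probes with repeated spots the SD between arrays was 0.0444, above the 0.0316 that spot noise predicted. The values below are means over 2 arrays with the value of each, and they carry no error between animals. Levels are normalised log2 intensities, and a ratio is the log2 of K14-caSmad1 over wild type. A gene was tested if, in at least 1 channel, a probe exceeded background on each array, and its brightest such probe stood for it. It was called if both arrays showed a change of 2-fold or more in 1 direction.

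Of the 38 collagen genes, 17 were tested, 6 were called lower in K14-caSmad1 and 0 higher. Among all 11748 genes tested, 9.81% were called lower and 4.09% higher. The 6 lower genes were 5 of the 6 tested fibrillar genes, Col3a1, Col1a1, Col1a2, Col11a2 and Col5a3, and 1 of the 5 tested basement membrane genes, Col18a1. The 5 fibrillar genes passed the filter through the wild-type channel alone and so had to differ, as did 7.5% of all genes tested, while 2.72% passed through the K14-caSmad1 channel alone. No count over the tested fibrillar genes therefore stands for the class. In limma's test at an adjusted p of 0.05, 9 of the 17 genes were lower and 7 higher, against 46.3% and 40.8% of all genes tested. Since 87.1% of all genes passed, that test only measures how closely the arrays repeated. In these bulk samples, fewer cells that make a transcript and less of it per cell cannot be told apart.

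Col3a1, the chain of type III collagen, had the lowest ratio of the collagens. Its level was 10.41 and 10.29 in wild type and 7.82 and 7.89 in K14-caSmad1 on replicates 1 and 2, so the genotypes lay far apart on both arrays. The ratios were -2.59 and -2.40, a measured 5.64-fold lower signal. Because the K14-caSmad1 signal was not well above background, the change was bounded as at least 3.13-fold lower. For such a bound, the bright channel's mean level was divided by the mean of a floor set on each array, the larger of the dim signal itself and the lowest signal well above background there, after loess and Aquantile normalisation. It is open to dye bias, since dyes were not swapped. Each bound also holds only for the background correction used here. With spots on a non-uniform background kept in the fit, the Col3a1 ratio itself was -1.44. With no background subtraction it was -1.60, and both are smaller changes than this bound. The probe lies at chr1:45405589-45405648 on the plus strand of build mm9, as do all probe positions given here, and the exons and UTRs of that build were not used here.

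The chains of type I collagen, the main collagen of dermis, were the next lowest among the fibrillar genes. Col1a1, spotted 10 times (chr11:94813075-94813134, plus strand), had levels of 9.93 and 9.996 in wild type and 8.38 and 8.47 in K14-caSmad1. Its ratios were -1.55 and -1.52, and the bound was at least 2.38-fold lower. Col1a2 (chr6:4490619-4490678, plus strand) had levels of 9.73 and 9.81 in wild type and 8.38 and 8.46 in K14-caSmad1. The ratios were -1.34 and -1.35, with a bound of at least 2.08-fold lower. Both chains, which join into one trimer, were thus measured in wild type and only bounded in K14-caSmad1.

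The remaining fibrillar genes were nearer to background. Col5a3, a chain of type V collagen that joins type I fibrils (chr9:20574592-20574651, minus strand), had levels of 9.54 and 9.49 in wild type and 8.43 and 8.43 in K14-caSmad1, with ratios of -1.11 and -1.06 and a bound of at least 1.75-fold lower. Col11a2, a chain of the cartilage fibril collagen type XI (chr17:34202998-34203057, plus strand), had levels of 9.09 and 9.02 in wild type and 7.70 and 7.92 in K14-caSmad1, with ratios of -1.39 and -1.10 and a bound of at least 1.28-fold lower. For 3 of the 5 genes the bound itself was at least 2-fold with the background correction used here. With the 5 genes at their bounds the median of the 6 tested fibrillar genes was -0.93, against -1.30 as measured. Over all 11 fibrillar genes with no filter it was -0.46, with 9 of 11 below 0, against 13823 of all 27961 genes (49.4%).

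Col2a1, the chain of cartilage type II collagen, was the single fibrillar gene well above background in both channels. Its level, from 10 spots, was 9.25 and 9.16 in wild type and 9.06 and 8.98 in K14-caSmad1. The ratios of -0.19 and -0.18 were small beside those of type I and III, and they lost their sign when arrays were centred on the median in place of loess, where the mean was 0.021. A second probe read -0.76 and -0.80, and it was well above background in wild type alone, with a bound of at least 1.08-fold lower. These 2 probes share 40 bases, at chr15:97806485-97806544 and chr15:97806505-97806564 on the minus strand, and differ only in 20 bases at each end. The second probe was also read from 1 spot and not 10, with K14-caSmad1 levels of 8.05 and 8.01. The ends that are not shared are shown as the only bases in which these probes differ.
Col2a1 upstream probe, own end: ctcccgccttcccattattg
Col2a1 downstream probe, own end: tggtgtggacatagggcctg
They hold 11 and 12 G or C. The cause of the gap between the probes was not tested, and the last Col2a1 probe, above background nowhere, read 0.41 and 0.37.

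**Figure D2:**
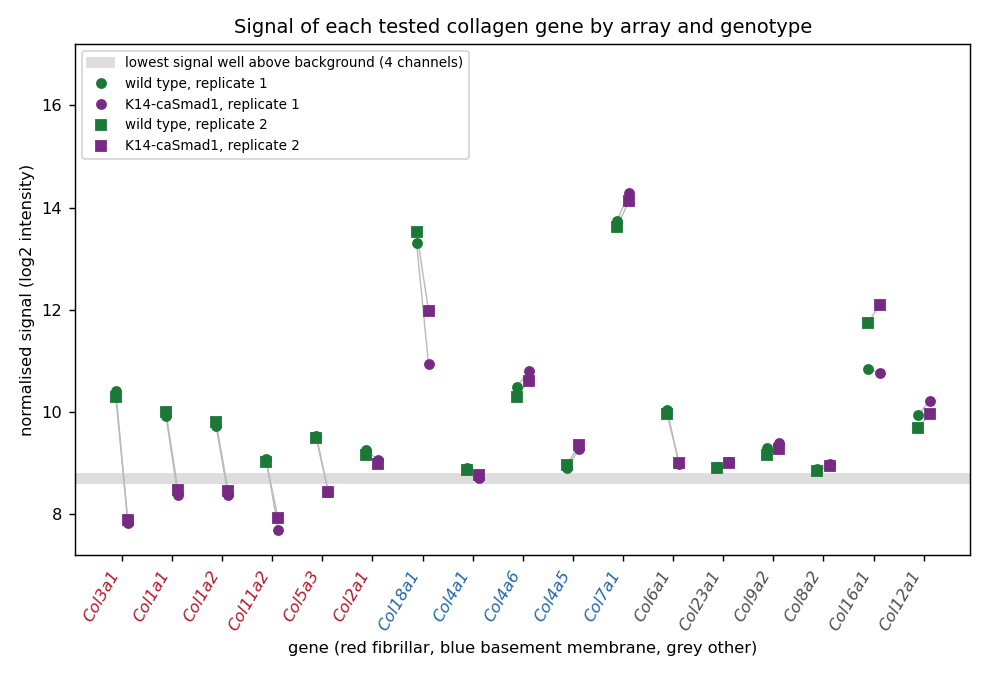
Normalised signal in log2 intensity (vertical axis) of the 17 tested collagen genes (horizontal axis, coloured by class), wild type in green and K14-caSmad1 in purple, circles for replicate 1 and squares for replicate 2. The grey band spans the lowest signal well above background in each channel, and the purple points of Col3a1, Col1a1, Col1a2, Col11a2 and Col5a3 lie below it. Levels of different genes come from different probes and are not to be set against each other.

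Among basement membrane collagens, Col7a1, Col4a5 and Col4a6 were higher in K14-caSmad1 on both arrays, by less than 2-fold. Col7a1, the type VII collagen of anchoring fibrils (chr9:108886855-108886914, plus strand), had levels of 13.74 and 13.62 in wild type and 14.29 and 14.13 in K14-caSmad1. Its ratios were 0.54 and 0.51, or 1.44-fold, the highest of the 38 collagen genes. Col4a5 (chrX:138122995-138123054, plus strand) had levels of 8.90 and 8.97 in wild type and 9.28 and 9.35 in K14-caSmad1, with ratios of 0.37 and 0.38. Col4a6 (chrX:137599990-137600049, minus strand) had levels of 10.497 and 10.30 in wild type and 10.81 and 10.61 in K14-caSmad1, with ratios of 0.31 and 0.31. Its other probes, above background nowhere, read 0.10 and 0.051, and -0.31 and -0.43. On each array the K14-caSmad1 level of these 3 genes, at the probes tested, was above the wild-type level of the same array, although for Col4a6 the higher wild-type level lay close to the lower K14-caSmad1 level. Their ratios ranked above the median of all genes tested, which was -0.032.

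Col4a5 and Col4a6 encode the α5 and α6 chains, which join in the epidermal basement membrane. The genes lie head to head on chromosome X, with starts 1343 bases apart on GRCm38.p6, and their ratios differed by 0.065 and 0.069 on the 2 arrays. Col4a1 and Col4a2, the chains of the common type IV network, are likewise head to head on chromosome 8, with starts 21 bases apart. Col4a1 had levels of 8.91 and 8.87 in wild type and 8.71 and 8.78 in K14-caSmad1, where 1 array was well above background. Its ratios were -0.20 and -0.092, and its mean turned to 0.017 with median centring. Col4a2 was well above background nowhere, at -0.16 and -0.050, and neither were Col4a3 and Col4a4, the α3 and α4 chains best known from kidney, nor Col15a1. The type IV chains that were well above background in both channels thus were α5 and α6.

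Col18a1, the type XVIII collagen whose end fragment is endostatin, was the basement membrane gene called lower. Its level was 13.32 and 13.53 in wild type and 10.93 and 11.98 in K14-caSmad1 (chr10:76515820-76515879, minus strand). The ratios of -2.38 and -1.54 were both below -1 but 0.84 apart, the widest gap between arrays of any of the 38 genes, ahead of 0.43 for Col16a1. A second probe (chr10:76516065-76516124, minus strand), also well above background in both channels, read -0.095 and 0.055. The probes thus disagreed by 1.94 on the log2 scale, and the mean of both, -0.99, no longer met the 2-fold call. The lower value of Col18a1 rests on 1 probe. So does that of each fibrillar gene called lower, whose other probes were above background nowhere.

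The other types included 6 tested genes, of which 0 were called. Col6a1, the α1 chain of type VI collagen (chr10:76171899-76171958, minus strand), had levels of 10.04 and 9.96 in wild type and 8.98 and 8.997 in K14-caSmad1, where 1 array was well above background. Its ratios were -1.06 and -0.96, just outside the call on replicate 2, and on the scanner's processed signals, at -1.85, it was called. Its partner chains were weaker: Col6a2 read -0.21 and -0.24, with a second probe at -0.61 and -0.78 that was above background in wild type on 1 array, and Col6a3 read -0.099 and -0.020. The highest tested gene of these types was Col12a1, a FACIT collagen, with levels of 9.93 and 9.69 in wild type and 10.22 and 9.96 in K14-caSmad1 and ratios of 0.29 and 0.27. Col23a1, Col8a2 and Col9a2 lay at means of 0.091, 0.11 and 0.11.

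Col16a1, a FACIT collagen, was the tested collagen that the arrays did not repeat. Its level was 10.85 and 11.74 in wild type and 10.76 and 12.09 in K14-caSmad1, and its ratios of -0.080 and 0.35 had opposite signs. The replicates were further apart than the genotypes, and in limma's test its adjusted p of 0.328 was the 1 value among the 17 that missed 0.05.

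**Figure D3:**
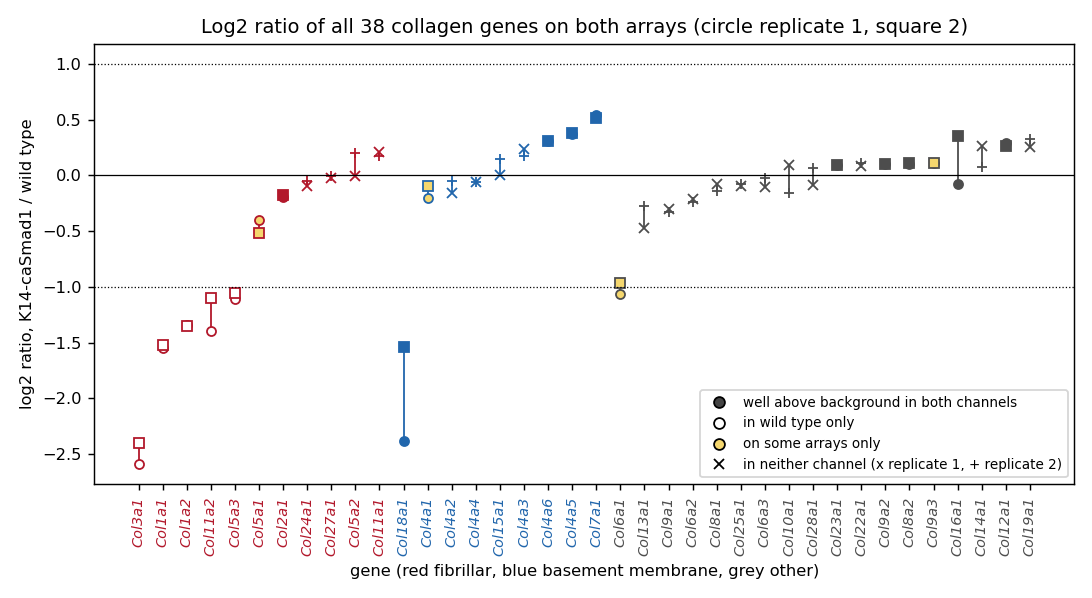
Log2 ratio of K14-caSmad1 over wild type (vertical axis) for all 38 collagen genes (horizontal axis), ordered by mean within class, with replicate 1 and replicate 2 joined by a line; fills give the channels in which the probe was well above background, and crosses mark probes that were so in neither. Dotted lines mark 2-fold, below which on both arrays lie the 5 open fibrillar genes and Col18a1.

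Of the 21 collagen genes not tested, 19 had a representative probe that stayed near the floor in both channels on both arrays. The exceptions were Col5a1, the α1 chain of type V collagen, which was above background in wild type on replicate 1 with ratios of -0.40 and -0.52, and Col9a3, above background in K14-caSmad1 on replicate 2 with ratios of 0.11 and 0.11. The untested genes ranged from -0.46 for Col5a1 to 0.29 for Col19a1, and between 2 signals near background such ratios are pulled towards 0. The other probes of the fibrillar genes called lower were also above background nowhere, and the part of this limit in their readings was not tested. Those of Col3a1 read -0.023 and -0.17, and 0.31 and 0.38, on replicate 1 and replicate 2. The second probe of Col11a2 read -0.65 and -0.56, and that of Col5a3 -0.20 and -0.31. The second Col1a2 probe, above background nowhere, read 0.023 and -0.0097, and the remaining Col1a1 probes read -0.23 and -0.22, and -0.31 and -0.35. In 11 of 12 collagen genes with several probes and at least 1 tested, the brightest tested probe was the one nearest the 3′ end of the gene, as in 68.0% of 5737 genes in the whole data, with Col4a1 the exception. The RNA had been amplified before labelling, per the labels, and the part of this in the readings of upstream probes was not tested.

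As measured, the class medians over tested genes were -1.30 for fibrillar, 0.31 for basement membrane and 0.11 for other collagens. Over all genes of each class with no filter they were -0.46, 0.072 and 0.042. Among genes well above background in both channels, where no value was a bound, they were -0.19 for Col2a1 alone, 0.34 for 4 basement membrane genes and 0.11 for 5 others. The first fibrillar median rests on 5 genes that passed the filter through wild type alone, and the last is 1 gene that turned sign with median centring, so neither speaks for the class. The size of the fibrillar median followed the handling of background, from -0.70 with all spots in the background fit to -3.33 on the scanner's processed signals, and the K14-caSmad1 signals of the 5 lower fibrillar genes were not well above background. With all spots in the background fit, none of these 5 genes met the 2-fold call on both arrays, with Col3a1 at a mean of -1.44 and Col1a1 at -0.90. That choice altered replicate 1 alone, which had 36 spots on a non-uniform background against 0 on replicate 2. The ratios on replicate 2 stayed at -2.40 for Col3a1 and -1.52 for Col1a1. With no background subtraction Col3a1 and Col1a1 met it, and with median centring Col5a3, at -0.90, did not.

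**Figure D4:**
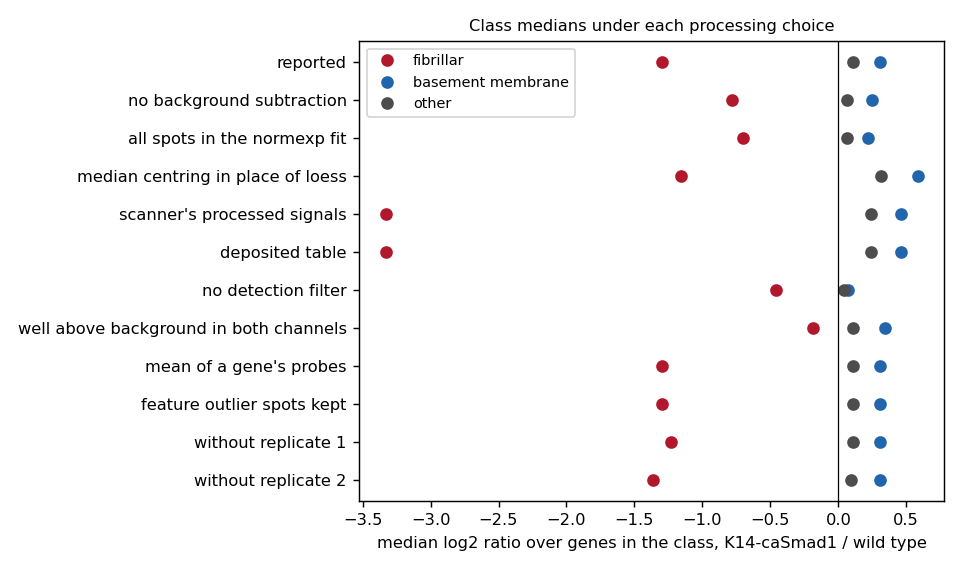
Median log2 ratio of K14-caSmad1 over wild type (horizontal axis) of fibrillar (red), basement membrane (blue) and other (grey) collagens under each processing choice (vertical axis). The red points run from -3.33 to -0.19 and the blue ones from 0.072 to 0.59. Most red points rest on the 5 genes tested through wild type alone, for which a value below 0 was fixed by the filter, and the one at -0.19 is Col2a1 alone.

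A list of 73 genes that build, hold and degrade collagen was used, of which 72 were on the array and 35 were tested. Of these 35, 3 were called higher and 1 lower, where 4.09% of all genes tested were called higher and 9.81% lower. Taken both ways the share was near the 13.9% of all genes, and the median of the 35 was 0.079. Itga11, the α11 subunit of a collagen receptor integrin of fibroblasts, was the lower one. Its level was 10.88 and 10.76 in wild type and 8.04 and 7.75 in K14-caSmad1, with ratios of -2.84 and -3.01 and a bound of at least 4.34-fold lower. Like Col3a1 and type I collagen, it was well above background in wild type alone, so its direction was fixed by the filter. The other tested receptors were not called, with Itgb1, the common β1 integrin subunit, at 0.82, Ddr1 at 0.15 and Mrc2, an uptake receptor for collagen, at 0.069.

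The genes called higher were 2 matricellular genes and 1 gene of the hydroxylation and glycosylation list. Postn, the matricellular protein periostin, which binds collagen, had levels of 10.89 and 10.67 in wild type and 12.90 and 12.67 in K14-caSmad1, or 4.02-fold higher, opposite in direction to Col3a1 and Col1a1. Sparc, a matricellular protein that binds collagen, had levels of 11.10 and 10.64 in wild type and 12.37 and 11.80 in K14-caSmad1. Its ratios were 1.27 and 1.15, while its other probe read a mean of 0.82. P3h4, a partner of the enzymes that hydroxylate collagen lysines, had ratios of 1.03 and 1.00, only just past 2-fold, and its other probe read 0.73. Dcn, the fibril proteoglycan decorin, lay the other way at -0.56, above background in wild type alone and at least 1.36-fold lower, while Thbs2 was at 0.27 and Kera, above background in K14-caSmad1 alone, was at 0.24.

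Within the cell, 9 of 14 hydroxylation and glycosylation genes were tested, and besides P3h4 none was called. P4hb, a subunit of prolyl hydroxylase, was at 0.54, Plod3, a lysyl hydroxylase, at -0.78, and Crtap at -0.46. Of 10 folding and export genes 8 were tested and 0 called. Serpinh1, the collagen chaperone HSP47, was at 0.28, with 0.17 and 0.39 on the arrays, and Kdelr2 was at 0.48. Ppib, a prolyl isomerase, was at -0.96, but its other probe read 0.29. Outside the cell, 3 of 10 genes for propeptide cleavage were tested, all below 0, as were 6149 of all 11748 genes tested. With no filter 7 of the 10 were below 0. Bmp1, which removes the carboxyl propeptide, was at -0.74. Its enhancer Pcolce, above background in wild type alone, was at -0.69, with a bound of at least 1.61-fold lower. Of 7 cross-linking genes 0 were tested. Of 8 proteases 5 were tested and 0 called, with Mmp2 at -0.51, Fap at -0.51 and Mmp14 at 0.45.

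The non-collagen basement membrane genes, 10 of 19 tested, showed 0 calls in either direction and a median of 0.089. Agrn, a heparan sulphate proteoglycan, was at 0.62, and Lama5, the α chain of laminin-511, lay lowest at -0.86. Lamb3, a laminin β chain of the epidermal basement membrane named after its value was seen, was at 0.62.

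Markers of other cell types went in both directions. For a marker well above background in wild type alone, a value below 0 was fixed by the filter. Of 16 dermal fibroblast markers, 10 were well above background nowhere, among them Pdgfra, Lum and Twist2. The 6 tested had a median of 0.28, with 4 of them above 0. Vim and Postn were called higher, at 1.39 and 2.01, and Dcn and Fap were above background in wild type alone. The summed level of the list was 25090 and 23256 in wild type and 43790 and 39190 in K14-caSmad1, and it was set by Thy1, Vim and Postn. Each summed level adds signals of different probes, those of markers above background nowhere included. The pericyte and smooth muscle list summed to 5193 and 4827 in wild type and 2908 and 2708 in K14-caSmad1. Its markers Acta2, at -2.08, and Tagln, at -1.78, were called lower among 4 of 6 tested. The other 2 tested markers of this list were above 0. Of the 2 called lower, 1 was above background in wild type alone, so its direction was fixed by the filter. The adipocyte list summed to 187936 and 165661 in wild type and 8132 and 7248 in K14-caSmad1, carried by Fabp4 at -4.67, with 2 of 4 markers tested. Lpl, the other one tested, was above background in wild type alone, at -0.93, and Adipoq and Plin1 were above background nowhere. Of 7 endothelial markers 2 were tested, Vwf at -0.90 and Flt1 at -0.95, both above background in wild type alone. The list summed to 3107 and 3072 in wild type and 2460 and 2346 in K14-caSmad1, with 5 of the 7 above background nowhere. Of 4 Schwann cell markers 2 were tested, with S100b at -0.45. Their part in the fibrillar result was not tested. All 8 keratinocyte markers were tested, and Krt5, Krt14, Krt1 and Trp63 were called higher, from 1.07 to 1.80, though a second Trp63 probe read -0.78. Cdh1, the epithelial cadherin, was above background in wild type alone, at -0.89.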

How the data were processed

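Per the file headers, Agilent Feature Extraction 10.5.1.1 wrote the scanner files, with positions on mm9. The deposited intensities are mean signal and median local background per spot, and processed signals that the software background-subtracted and dye-normalised. The deposited series table holds log10 ratios of Cy5 over Cy3, which differed from the ratio of processed signals by at most 0.00397. Intensities were corrected with limma 3.58.1 in R 4.3.3 (normexp, offset 50), without 36 spots on a non-uniform background. All of these were on replicate 1, so putting all spots in the fit altered that array alone. Log2 ratios were normalised by loess (span 0.3), and outlier spots were left out. The limma fit, with Benjamini-Hochberg adjustment, was tested on simulated data for probes above a set Cy3 signal. Probes dimmer in Cy3 were not covered. Gene names came from the files, updated through RefSeq. Because the arrays differed no more than spot noise predicts for single spots (repeated probes: SD 0.0444 against 0.0316), they were counted as 1 sample, and p-values measure only technical spread.

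The collagens and the lists of partner and marker genes were chosen with earlier results of these data known. Every tested collagen was named; full values were given for genes called, bounded, with probes over 1 apart on the log2 scale, or highest or lowest in class, and for the partner lists genes called or up to 3 per role with the largest ratio. One gene that this rule names is not reported here. Alternatives covered background, normalisation, filter, probe choice and leaving out each array. The number of arrays limits the precision.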

Additional observations from a re-analysis of the deposited data

How the results depend on the processing

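Of 180 gene values under alternatives, 164 kept direction and call, 10 lost the 2-fold call, 3 gained it and 3 turned sign: Col2a1 (0.021) and Col4a1 (0.017) with median centring, and Col16a1 (-0.080 without replicate 2, 0.35 without replicate 1). Many of the 180 could not change, so the 164 do not measure stability. Both filter settings reused the reported values, as did, for most genes, keeping outlier spots or averaging probes. The deposited table repeated the processed signals. Median centring moved the median of all genes to 0.22, and calls to 1110 higher and 811 lower, from 480 and 1153; processed signals gave 1259 and 1881, all spots in normexp 303 and 473, and no background subtraction 423 and 764. Collagens called lower, 6 as reported, numbered 3 with no background subtraction, 1 with all spots in normexp (Col18a1) and 1 when both channels had to be well above background (Col18a1, by the filter itself). By limma's call 7 were higher, against 0. The medians of fibrillar, basement membrane and other collagens were -0.78, 0.25 and 0.066 with no background subtraction, -0.70, 0.22 and 0.062 with all spots in normexp, and -1.15, 0.59 and 0.31 with median centring. They were -3.33, 0.46 and 0.24 with processed signals and also with the deposited table, and -0.46, 0.072 and 0.042 with no filter. Well above background in both channels, the first 2 were -0.19 and 0.34. Leaving out each replicate gave -1.37 to -1.23, 0.31 to 0.31 and 0.096 to 0.11, and Col6a1 was called without replicate 2. Without background subtraction Col11a2 (-0.67), Col1a2 (-0.88) and Col5a3 (-0.68) lost the call. Where no construction shows it, the cause was not tested. No paired analysis was possible because each array is 1 ratio that already pairs the genotypes. Depth is set by signal over background, which limits fibrillar ratios to bounds.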
